A study of Mus musculus with 2 samples.

Results

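Endothelial cells line the vessels of the brain, and their nuclei made up a very small part of single-nucleus RNA-sequencing libraries from the hippocampus of 3-month-old mice. A barcode was counted as endothelial when it had 500 genes or more, no more than 5% of its unique molecular identifiers (UMIs, counted RNA molecules) from mitochondrial genes and at most 8000 UMIs in all, and when the genes Flt1, Cldn5, Mecom, Slco1a4, Abcb1a and Tek together gave 5 or more UMIs with 3 or more of these 6 genes detected. This rule found 69 nuclei of the 35285 that passed the gene and mitochondrial limits. The male library held 20 of 16034 (0.125%, exact 95% binomial interval 0.0762% to 0.193%) and the female library 49 of 19251 (0.255%, interval 0.188% to 0.336%). The female share was 2.04 times the male share, with a counting interval of 1.19 to 3.62.

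Both libraries came from mice of the genotype Stra8L/-; Nestin-Cre, named Stra8-cKO, and there was 1 library for each sex. Nestin-Cre places Cre recombinase under the promoter of Nestin, a gene of neural progenitors, and which cells recombined was not measured here. No library of another genotype was analysed here, so nothing in these values separates the deletion from the normal state. Library, sex, animal and dissection are confounded and cannot be told apart, a test between the libraries is not possible, and every interval given covers counting error only. Stra8, the targeted gene and best known as a regulator of entry into meiosis in germ cells, had 0 UMIs in the endothelial nuclei of both libraries and 3 and 6 UMIs in the whole male and female libraries, a depth that checks nothing about the deletion.

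Brain endothelium is joined by tight junctions and lacks most of the pores and vesicle traffic of other vessels, so nutrients cross it through solute carriers while ATP-driven efflux pumps return many lipophilic compounds to the blood. This state, the blood-brain barrier, is induced and kept by Wnt and Norrin signals from neural cells acting through Frizzled receptors and the LEF1 and TCF factors, on top of an endothelial programme run by ETS and SOX factors. Mural cells (pericytes and smooth muscle) sit on the outer face of the endothelial tube within the shared basement membrane, and perivascular fibroblasts lie around the larger vessels and in the meninges.

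Endothelial nuclei, held by the rule to at most 8000 UMIs, had a median of 2400 UMIs in the male library (range 1159 to 7440) and 2222 in the female library (805 to 7991). All other nuclei, with no such limit, had medians of 4856 and 2964 UMIs, among them oligodendrocytes with 1706 and 1630 and microglia with 1552 and 1654.5. Summed over nuclei, the endothelial counts came to 61240 and 140887 UMIs of library totals of 103262825 and 108286856, so a single UMI stood for 16.3 and 7.10 CPM (UMIs of a gene per 1000000 UMIs of the group). A gene at 0 UMIs could therefore lie anywhere up to the level of 3 counts, 49.0 and 21.3 CPM in male and female nuclei. The median mitochondrial share was higher in endothelial nuclei (1.70% and 2.71%) than in all other nuclei (0.606% and 1.39%), and higher in the female library in both. Among the other groups, mural nuclei had 1.47% and 2.02%, oligodendrocytes 1.37% and 2.15% and neurons 0.431% and 0.660%. The libraries shared 101 barcodes, of which 0 belonged to endothelial nuclei. Values below are given as male, then female, and ratios as the log2 of CPM with 20 CPM added to each side.

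The genes that define the rule are described here without further reading, since they chose the nuclei. Flt1, the VEGF receptor 1 gene (chromosome 5, 147561604 to 147726011, mm10), had UMIs in 19 of 20 and 47 of 49 endothelial nuclei and a level of 2286 and 1810 CPM, against 1.65 and 4.83 CPM in all other nuclei. Cldn5, the main claudin of the barrier's tight junctions (chromosome 16, 18776847 to 18778262), stood at 816 and 958 CPM. Mecom, a zinc finger factor gene, stood at 1159 and 965 CPM, Slco1a4, an organic anion carrier, at 849 and 887, Abcb1a, the P-glycoprotein pump, at 621 and 518, and Tek, the angiopoietin receptor TIE2, at 163 and 163 CPM. Their summed UMIs per nucleus ran from 5 to 53 with a median of 12, and from 5 to 42 with a median of 13. At the edge of the rule, 1 and 6 nuclei had a sum of exactly 5, and 1 and 11 nuclei stood just outside with a sum of 4 over 3 or more genes.

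Markers that played no part in the rule were found in the same nuclei. Of 22 other endothelial markers, each was found in at least 1 endothelial nucleus, and they gave a median of 16.5 UMIs per nucleus in the male library (4 to 46) and 16 in the female library (1 to 73). A rule of the same form built on these 22 genes was met by 19 of 20 and 43 of 49 endothelial nuclei. Nuclei at the edge carried less: those with a rule sum of 5 had medians of 6 and 4.5 independent marker UMIs, while those just outside at a sum of 4 had 4 and 6, so the threshold passed through nuclei of similar content. The plot of rule genes against other markers shows this for every nucleus.

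**Figure D1:**
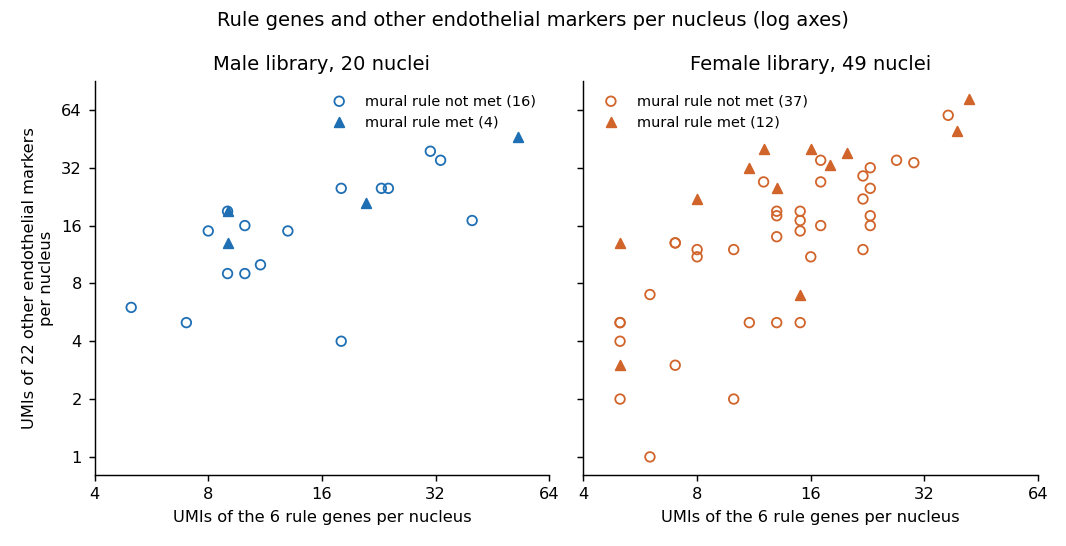
UMIs of the 6 rule genes (horizontal, log axis) against UMIs of 22 endothelial markers outside the rule (vertical, log axis) in each endothelial nucleus of the male library (left, 20 nuclei) and the female library (right, 49 nuclei); triangles are nuclei that also met the mural marker rule. Independent markers reach 46 UMIs (male) and 73 UMIs (female), and female nuclei with 5 rule UMIs have 2 to 13 independent ones.

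Many endothelial nuclei held RNA of neighbouring cell types as well. Rules of the same form for other types, with the added demand that the type's markers take at least their library-wide share of the nucleus's UMIs, were met by 15 of 20 and 34 of 49 endothelial nuclei. Oligodendrocyte markers met theirs in 9 and 24 nuclei, astrocyte markers in 4 and 18, mural markers in 4 and 12, neuron markers in 0 and 4, microglia markers in 0 and 3, precursor markers in 1 and 1, and fibroblast markers in 0 and 1. The median endothelial nucleus held 4.5 and 8 UMIs of the oligodendrocyte list, 2 and 5 of the astrocyte list, 13.5 and 11 of the neuron list and 4.5 and 1 of the choroid plexus list. For mural markers the medians were 0 and 2 UMIs, with 14 of 20 and 19 of 49 nuclei at 0, and for fibroblast markers 0 and 0, with 16 and 33 nuclei at 0. The 5 and 15 nuclei left met no other rule. Free RNA and droplets with more than 1 nucleus were not separated, and their part in the results was not tested.

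Set against all other nuclei, 1167 genes had enough UMIs for a ratio, and of these 186 (15.9%) were at least 2-fold higher in endothelial nuclei in both libraries and 186 (15.9%) at least 2-fold lower. The median gene lay at 0.00 and -0.23. Both counts changed with the nuclei compared: against other nuclei of at most 8000 UMIs they were 71 and 100. That limit can change the mix of cell types as well as the depth, and their parts were not tested. Averaging each nucleus's own CPM gave 77 genes on the higher side, endothelial nuclei of at most 4000 UMIs gave 94, and a lower UMI minimum gave 344. The 5 and 15 nuclei that met no other rule gave 9 higher and 22 lower genes, and the 2 and 2 nuclei left by limits of 1000 genes and 1% mitochondrial UMIs gave 2 and 6. How many genes had enough UMIs for a ratio can also change with these choices and is not given, so these counts are not shares. Because the nuclei were chosen from these counts, and because a gene that is scarce elsewhere could enter only through its endothelial level, these ratios are a description. On the lower side were neuronal genes: 5 of the 10 neuron markers with a ratio were at least 2-fold lower, with a median of -0.83 and -1.19.

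The genes with the highest ratios outside the rule were mostly known endothelial genes. Adgrl4, an adhesion receptor of endothelium also called ELTD1 (chromosome 3, 151437887 to 151545086), gave 68 and 181 UMIs in 14 and 42 nuclei, or 1110 CPM (862 to 1408) and 1285 CPM (1104 to 1486), and 0.623 and 3.33 CPM in all other nuclei, a log2 ratio of 5.78 and 5.81. Its share of nuclei with a UMI was 70.0% and 85.7%, against 0.0846% and 0.692% of oligodendrocytes, whose median depth was 1706 and 1630 UMIs. With every nucleus thinned to 1000 UMIs the endothelial shares were 50.0% and 53.2%. Both libraries thus put Adgrl4 near the same level, with shares of nuclei far above those of the oligodendrocyte group. Nuclei that met the endothelial rule or another type's rule had been left out of that group, which lowers its shares.

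Hmcn1, which encodes the extracellular matrix protein hemicentin, stood at 718 and 774 CPM (log2 ratio 5.09 and 5.06). Klf2, the flow-responsive transcription factor, stood at 490 and 681 CPM (4.49 and 4.81). Ccdc141 stood at 931 and 965 CPM, Nostrin, a regulator of endothelial nitric oxide synthase traffic, at 425 and 547, and Atp10a, a lipid flippase gene, at 621 and 568. For these 5 genes the counting intervals of the libraries overlapped. Adgrf5, Pltp, Acer2, Pecam1, Ptprb, Ctla2a, Itm2a, Ly6c1, Cxcl12, Slc2a1, Slco1c1, Ebf1, Rgs5 and Bsg completed the 20 highest. The map of levels by cell type draws only part of these 20 genes. Among those drawn, Slco1c1 reached 311 and 438 CPM in astrocytes, and Ebf1 reached 746 and 986 CPM and Rgs5 315 and 468 CPM in mural nuclei. Ccdc141 was also found in mural nuclei. With nuclei thinned as above, its shares were 19.4% and 28.75% of mural nuclei and 55.0% and 51.1% of endothelial nuclei. In oligodendrocytes they were 0.217% and 1.08%.

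**Figure D2:**
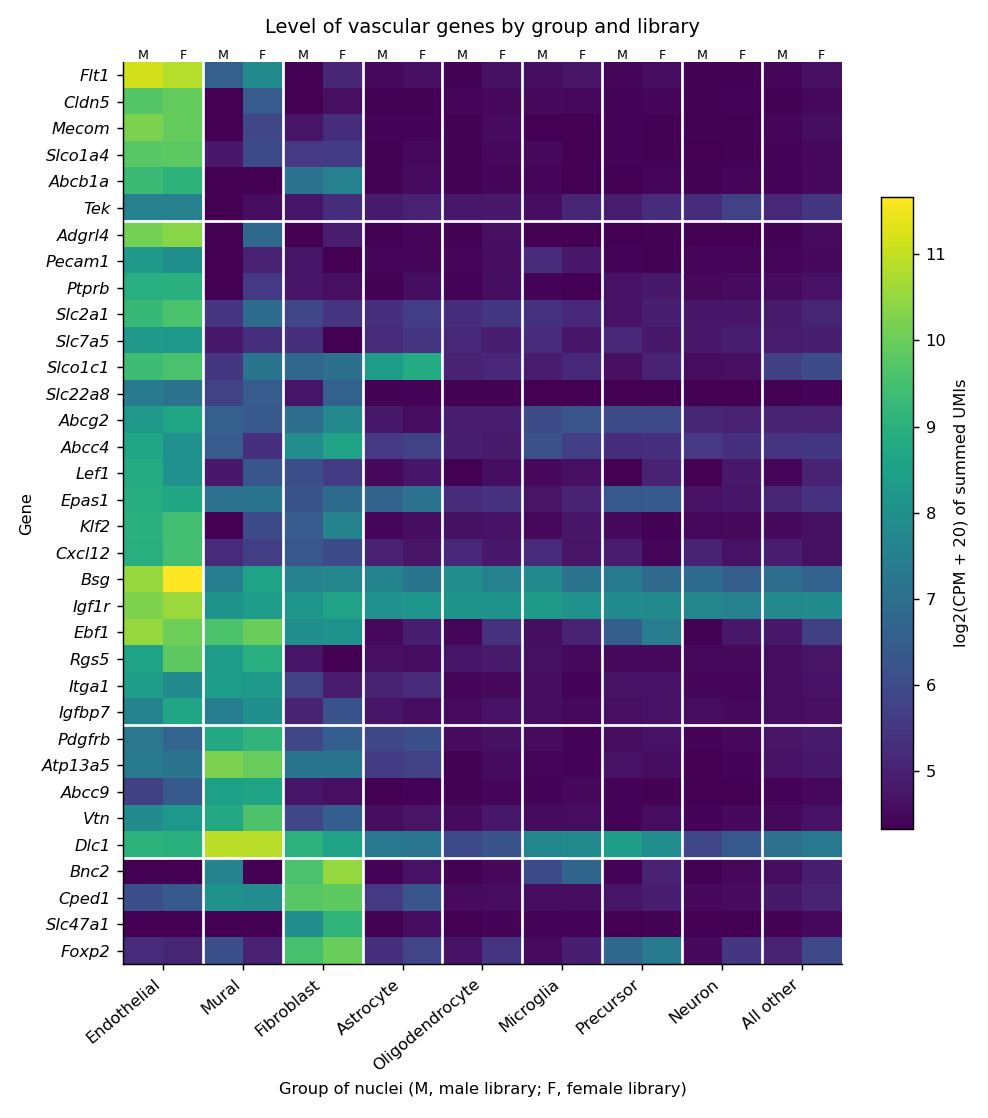
Levels as log2(CPM + 20) of summed UMIs (colour) for 34 vascular genes (rows) in endothelial nuclei, 7 other groups and all other nuclei (columns, M male and F female library). Flt1 (2286 and 1810 CPM) and Adgrl4 (1110 and 1285 CPM) are bright in endothelial columns, Ebf1 and Rgs5 are bright in endothelial and mural columns, and Abcb1a, Abcg2 and Abcc4 also appear in fibroblast columns.

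Upstream sequence was examined for letters typical of ETS and of LEF1 and TCF factors, because both families act in barrier endothelium and the genes above were high in the same nuclei. Of the 26 rule and highest genes, 23 had a start site in the RefSeq promoter table (GRCm38.p6), with 28 windows of the 250 bases before the start. The ETS-type letters CAGGAAG, searched on both strands, were in 3 of the 28 windows, against 10.8% of all 32851 windows, and the LEF1 and TCF-type letters CTTTGAT, which do not overlap the other motif in these windows, were in 2 of 28, against 3.21%. Among 173 windows of the genes at least 2-fold higher in endothelial nuclei the shares were 9.25% and 2.31%, and among 218 windows of the genes at least 2-fold lower they were 7.80% and 2.29%. In these larger sets neither motif was more common than in all windows, and a match is a description of letters and not a bound site. The 5 windows with a match are printed 5′ to 3′ on the strand of the gene, in lower case with the match in capitals; CTTCCTG and ATCAAAG are the same letters read on the opposite strand. They belong to Adgrf5 (plus strand, chr17:43360181-43360430), an adhesion receptor, Ctla2a (minus strand, chr13:60936567-60936816), a cysteine protease inhibitor, Itm2a (minus strand, chrX:107403361-107403610), a membrane protein, Mecom (minus strand, chr3:30509760-30510009) and Cxcl12 (plus strand, chr6:117168285-117168534), a chemokine.
Adgrf5: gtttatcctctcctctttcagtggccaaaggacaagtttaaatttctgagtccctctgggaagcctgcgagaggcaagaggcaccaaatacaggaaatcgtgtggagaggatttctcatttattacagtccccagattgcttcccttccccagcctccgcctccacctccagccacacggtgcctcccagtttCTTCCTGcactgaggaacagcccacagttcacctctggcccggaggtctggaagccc
Ctla2a: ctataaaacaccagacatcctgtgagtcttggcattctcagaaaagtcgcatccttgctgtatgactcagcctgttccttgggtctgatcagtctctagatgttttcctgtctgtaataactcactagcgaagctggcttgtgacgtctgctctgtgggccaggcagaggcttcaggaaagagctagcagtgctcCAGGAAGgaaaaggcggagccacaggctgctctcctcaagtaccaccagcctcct
Itm2a: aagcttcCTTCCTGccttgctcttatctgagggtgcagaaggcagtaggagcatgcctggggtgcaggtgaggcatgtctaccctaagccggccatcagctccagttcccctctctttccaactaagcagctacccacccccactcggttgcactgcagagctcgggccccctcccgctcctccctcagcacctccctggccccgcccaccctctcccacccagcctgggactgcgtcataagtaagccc
Mecom: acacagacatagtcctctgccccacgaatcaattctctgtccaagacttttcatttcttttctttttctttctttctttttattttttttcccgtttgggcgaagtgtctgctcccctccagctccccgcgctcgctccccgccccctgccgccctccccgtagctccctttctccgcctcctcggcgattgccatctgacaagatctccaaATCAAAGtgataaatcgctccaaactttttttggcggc
Cxcl12: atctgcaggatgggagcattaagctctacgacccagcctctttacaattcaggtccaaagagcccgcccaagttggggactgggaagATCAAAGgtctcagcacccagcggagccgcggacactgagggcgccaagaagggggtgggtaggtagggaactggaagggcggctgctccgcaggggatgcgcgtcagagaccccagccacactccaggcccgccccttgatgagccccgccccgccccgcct

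Carriers that feed the brain were high in endothelial nuclei of both libraries. Slc2a1, the glucose transporter GLUT1 (chromosome 4, 119108711 to 119137983), gave 36 and 106 UMIs, or 588 CPM (412 to 814) and 752 CPM (616 to 910), against 9.01 and 13.7 CPM in all other nuclei. It was found in 70.0% and 69.4% of endothelial nuclei and in 3.93% and 4.38% of oligodendrocytes, and after thinning to 1000 UMIs in 50.0% and 55.3% against 2.17% and 2.44%. Slco1c1, the thyroxine carrier OATP1C1, stood at 653 and 738 CPM, a log2 ratio of 3.69 and 3.53. Slc7a5, the large neutral amino acid transporter LAT1, stood at 294 and 284 CPM against 10.0 and 10.8, from 18 and 40 UMIs, too few in the male library to be counted as a ratio. In each of these the 2 libraries' counting intervals overlapped.

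Of 24 solute carriers listed, all had a UMI in endothelial nuclei, and, outside the rule gene, 4 of the 6 with a ratio were at least 2-fold higher than in all other nuclei, against 15.9% of all genes, and 0 at least 2-fold lower. Here and in the lists that follow, a gene scarce elsewhere reached the UMI minimum only through its endothelial counts, so nothing particular to a list is read from its count. Their median ratio was 1.79 and 2.04, against 0.00 and -0.23 over all 1167 genes. Slc6a6, the taurine transporter, stood at 474 and 497 CPM (1.45 and 1.72), Slc39a10, a zinc importer, at 359 and 334 (2.13 and 2.35), and Slc22a8, the organic anion transporter OAT3, at 147 and 114. Slc16a1, the lactate carrier MCT1, stood at 81.6 and 163 CPM and Slc7a1, the cationic amino acid transporter CAT1, at 147 and 185. Bsg, whose product basigin chaperones monocarboxylate carriers to the membrane (chromosome 10, 79704491 to 79711969), differed by library, at 1453 CPM (1167 to 1788) and 3230 CPM (2940 to 3540).

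Of 9 efflux transporters listed, all had a UMI. Besides Abcb1a, Abcg2, the breast cancer resistance protein pump, stood at 294 and 376 CPM from 18 and 53 UMIs, against 13.0 and 12.2 CPM in all other nuclei. Abcc4, the pump MRP4, was the other listed gene with a ratio, at 376 and 241 CPM (3.21 and 2.50). These pumps were not particular to endothelium: fibroblast nuclei had 119 and 167 CPM of Abcb1a, 106 and 201 of Abcg2 and 225 and 368 of Abcc4. Abcb1b, a related gene next to Abcb1a, had 0 and 1 UMI, and how reads matching both genes were counted was not examined.

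Uptake receptors divided. Igf1r, the IGF-1 receptor, gave 73 and 210 UMIs, or 1192 and 1491 CPM, a log2 ratio of 2.46 and 2.69, and Insr, the insulin receptor, stood at 278 and 298 CPM (1.10 and 1.14). Tfrc, the transferrin receptor, stood at 180 and 99.4 CPM. Mfsd2a, a lysophospholipid carrier that restrains transcytosis, had 4 and 5 UMIs, Cav1, the caveolae protein, 4 and 16, and Plvap, the diaphragm protein of leaky vessels, 0 and 1. Cd36, a fatty acid receptor, and Ager, a receptor for glycated proteins, had 0 UMIs in both. Of the 18 genes in this list 16 had a UMI, and the 2 with a ratio, Igf1r and Insr, were both at least 2-fold higher, against 15.9% of all genes.

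Junction genes beyond Cldn5 were uneven. Of 20 listed, 19 had a UMI, and of the 4 with a ratio, Tjp1, Pard3, Magi1 and Afdn, 0 were at least 2-fold higher or lower in both libraries, with a median ratio of 1.07 and 0.54. Tjp1, the scaffold ZO-1, stood at 833 and 603 CPM (1.13 and 0.74), since all other nuclei also had 370 and 353 CPM. Genes with too few UMIs for a ratio were scarcer elsewhere: Ocln, occludin, stood at 98.0 and 199 CPM against 15.1 and 9.11, Esam, an endothelial adhesion molecule, at 163 and 248 against 1.47 and 2.54, and Cdh5, VE-cadherin, at 98.0 and 114 against 0.165 and 0.663. Cgn, cingulin of epithelial junctions, had 0 UMIs in both.

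**Figure D3:**
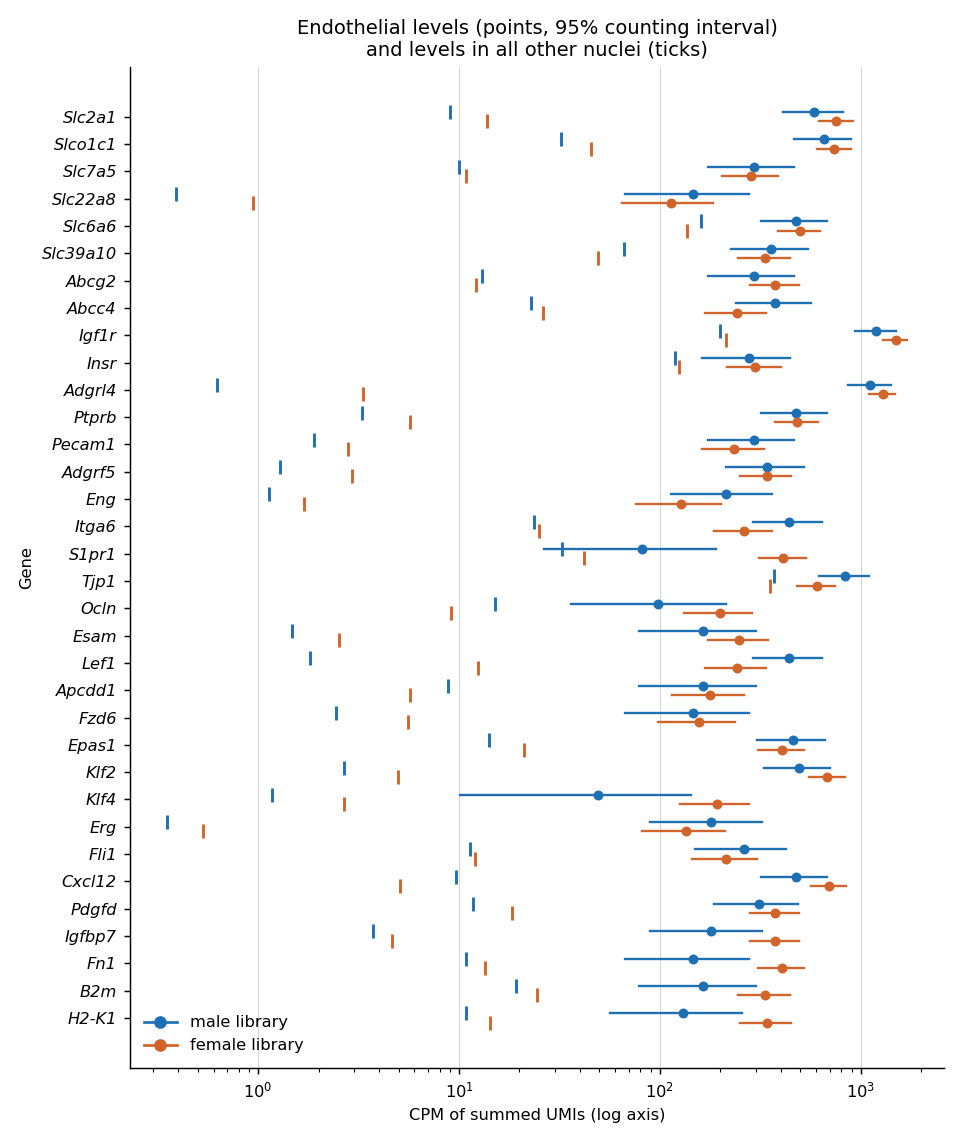
CPM of summed UMIs (log axis) for 34 genes in the endothelial nuclei of the male (blue) and female (orange) library as points with 95% counting intervals, and in all other nuclei as ticks. Slc2a1 (588 and 752 CPM against 9.01 and 13.7) lies far from its ticks, Tjp1 (833 and 603 against 370 and 353) lies close to them, and S1pr1 (81.6 and 412) differs between the libraries.

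Receptors of vascular growth and flow signals were present at uneven depth. Of 29 listed, 28 had a UMI, and 6 of the 7 with a ratio were at least 2-fold higher than in all other nuclei, against 15.9% of all genes, with a median of 3.40 and 2.65. Ptprb, the endothelial phosphatase VE-PTP, stood at 474 and 483 CPM, Pecam1, the adhesion molecule CD31, at 294 and 234, Itga6, an integrin laminin receptor, at 441 and 263, and Eng, endoglin, at 212 and 128. Kdr, the VEGF receptor 2, had 6 and 14 UMIs and Tie1 4 and 10, few beside the 140 and 255 UMIs of Flt1, though UMIs of different genes are not on a scale per length. Nrp1, a VEGF and semaphorin co-receptor, stood at 212 and 128 CPM in endothelial and 327 and 304 CPM in all other nuclei. S1pr1, the sphingosine 1-phosphate receptor, had 5 UMIs in 3 male nuclei and 58 UMIs in 30 female nuclei.

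Among genes of Wnt signalling in the barrier, Lef1 was the best counted. Lef1, the nuclear effector of Wnt and Norrin signals, gave 27 UMIs in 12 nuclei and 34 UMIs in 20 nuclei, or 441 CPM (291 to 641) and 241 CPM (167 to 337), against 1.81 and 12.4 CPM in all other nuclei. Of the 20 genes listed each had a UMI, and 1, Lef1, had enough for a ratio, at 4.40 and 3.01. Apcdd1, a Wnt antagonist induced by the pathway, stood at 163 and 177 CPM and Fzd6 at 147 and 156 CPM. Fzd4, the Norrin receptor, had 3 and 16 UMIs, Sox17 1 and 16, Foxq1 0 and 8 and Foxf2 5 and 5, too few for a ratio. The feedback genes Axin2, Nkd1 and Notum had 0 and 2, 4 and 3, and 4 and 4 UMIs.

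Transcription factors of the endothelial programme were broadly seen. Each of the 30 listed had a UMI, and 3 of the 6 with a ratio were at least 2-fold higher, against 15.9% of all genes, with a median of 2.17 and 1.49. Epas1, the hypoxia factor HIF-2α, stood at 457 and 405 CPM (3.81 and 3.37), and the ETS factors Erg and Fli1 at 180 and 135 and at 261 and 213 CPM. Zfp366 had 11 and 13 UMIs. Klf4 and Klf6, relatives of Klf2, had 3 and 27 and 5 and 31 UMIs, lower in the male nuclei in CPM as well (49.0 against 192, and 81.6 against 220).

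Genes of secreted signals and of the matrix were found in both libraries. Cxcl12 stood at 474 and 696 CPM, Pdgfd, a growth factor, at 310 and 376 and Igfbp7, a secreted binding protein of the vascular wall, at 180 and 376, while Pdgfb, the signal that recruits pericytes, had 5 and 10 UMIs. Edn1, the vasoconstrictor endothelin 1, had 0 and 10 UMIs, and Nos3, the endothelial nitric oxide synthase, 2 and 9. Of 14 basement membrane genes all had a UMI, with Sparcl1 at 490 and 582 CPM and Fn1, fibronectin, at 147 and 405 CPM.

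Position along the vessel tree was only partly resolved. Of the capillary list, Spock2 had UMIs in 14 of 20 and 34 of 49 nuclei and Cxcl12 in 12 and 27, and the list as a whole gave medians of 8 and 6 UMIs per nucleus. Vwf, the von Willebrand factor of larger vessels, had 5 and 14 UMIs in 3 and 10 nuclei. Slc38a5, a venous amino acid carrier, had 2 and 3 UMIs, and the arterial genes Bmx, Gkn3 and Gja5 had 1 and 0, 0 and 5, and 0 and 1. At least 2 UMIs of the arterial list were found in 16 and 42 nuclei, of the capillary list in 20 and 43 and of the venous list in 3 and 24, with 3 and 23 nuclei holding both arterial and venous ones, so the lists did not part the nuclei into separate zones. The arterial list also summed to 1465 and 1509 CPM in all other nuclei, against 1845 and 2222 in endothelial nuclei. Of 19 genes of inflammation and antigen presentation 16 had a UMI, and they summed to 914 and 1860 CPM against 163 and 189 in all other nuclei. The adhesion genes Icam1, Selp and Sele had 0 UMIs in both libraries, while Vcam1 had 1 and 7. Of 8 tip-cell and proliferation genes, Esm1, Apln, Aplnr, Kcne3 and Top2a had 0 UMIs in both, and Cd34, Mki67 and Pgf had 8 and 10, 1 and 0, and 0 and 2.

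Against mural nuclei (32 and 81 nuclei found by the mural rule), 42 of 1220 genes (3.44%) were at least 2-fold higher in endothelial nuclei in both libraries and 34 (2.79%) at least 2-fold lower. The median gene lay at 0.07 and -0.01. A lower UMI minimum gave 105 and 66 genes, and averaging over nuclei gave 60 on the lower side. Hmcn1 (0 and 11.7 CPM in mural nuclei), Klf2 (0 and 42.9), Atp10a (16.6 and 19.5), Cxcl12 (16.6 and 31.2) and Bsg (158 and 362) were among the genes higher in endothelium. The male mural nuclei had 0 UMIs of Adgrl4, Ptprb, Pecam1, Cldn5 and Mecom, while the female ones had 89.6, 27.3, 11.7, 66.2 and 39.0 CPM. Nuclei that met both rules were counted as endothelial and left out of the mural group. Low endothelial levels in mural nuclei, above all of the rule genes Cldn5 and Mecom, were therefore partly fixed by this choice. The same choice kept mural RNA of such nuclei on the endothelial side. The 22 independent endothelial markers summed to 290 and 888 CPM in mural nuclei, and the 14 mural markers to 980 and 1824 CPM in endothelial nuclei. Rgs5 made up 359 and 894 CPM of the latter sum.

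On the mural side, Dlc1 stood at 523 and 483 CPM in endothelial and 1907 and 1851 CPM in mural nuclei (log2 ratio -1.83 and -1.90). Atp13a5, a pericyte gene, stood at 147 and 121 against 1161 and 966 CPM, and Pdgfrb, the PDGF receptor of pericytes, at 131 and 85.2 against 431 and 538 CPM. Dcdc2a, Colec12, Slc38a11, Lin7a, Tbx3os1, Adap2os, Pld1, Stx16 and Bicc1 had the lowest ratios with Dlc1 among genes outside the lists. A UMI of a mural marker was found in 6 of 20 and 30 of 49 endothelial nuclei. Parted by the mural rule itself, which fixes the direction of the split, the 16 and 37 nuclei that did not meet the mural rule held 0 and 1 UMI of Pdgfrb, 0 and 2 of Atp13a5, 0 and 4 of Vtn, 0 and 2 of Acta2 and 0 and 0 of Myh11, and the 4 and 12 that met it held 8 and 11, 9 and 15, 13 and 36, 0 and 17 and 0 and 11.

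A few genes were high on both sides. Ebf1, an early B-cell factor gene, stood at 1453 and 1043 CPM in endothelial and 746 and 986 in mural nuclei, Itga1, a collagen-binding integrin, at 327 and 213 against 323 and 296, and Igfbp7 at 180 and 376 against 158 and 238. Rgs5, often used as a pericyte marker, stood at 359 and 894 CPM against 315 and 468, and it was still found in endothelial nuclei that did not meet the mural rule, with 10 UMIs in 2 male and 49 UMIs in 14 female nuclei. In the 5 male nuclei that met no other rule it had 0 UMIs, and in the 15 female ones 31 UMIs in 6 nuclei.

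**Figure D4:**
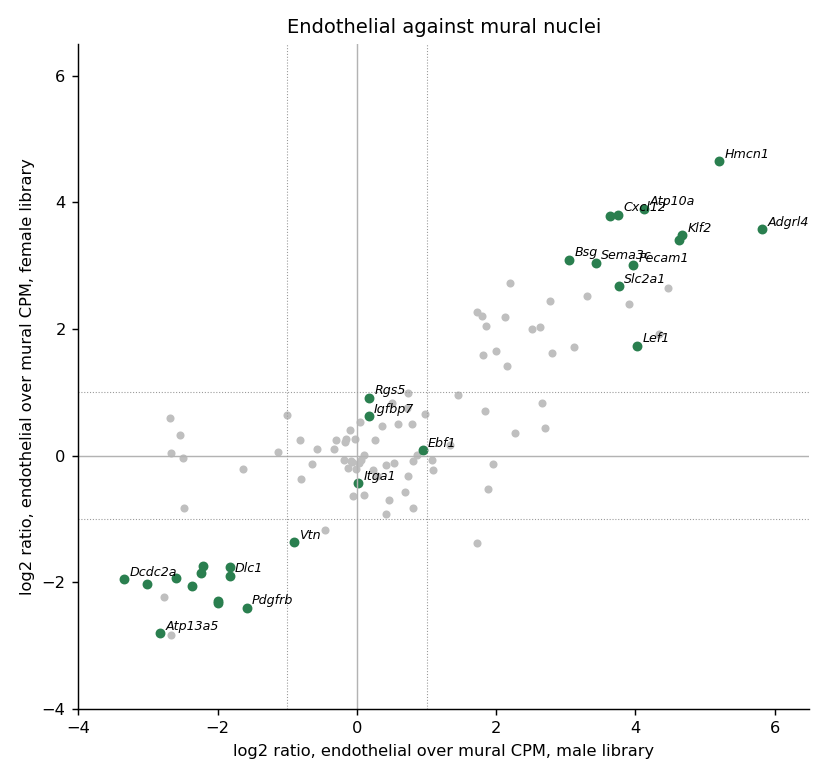
Log2 ratio of endothelial over mural CPM (20 CPM added to each) in the male library (horizontal) and the female library (vertical) for listed and named genes; green points are genes described in the text, grey points are the others, and dotted lines mark a 2-fold difference. Hmcn1, Adgrl4 and Klf2 lie at the upper right, Atp13a5, Dlc1 and Pdgfrb at the lower left, and Ebf1, Itga1, Igfbp7 and Rgs5 near the centre; ratios with 0 mural UMIs are set by the 20 CPM added.

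Against fibroblast nuclei (32 and 58 nuclei, with those that met the endothelial rule left out), 55 of 1248 genes (4.41%) were at least 2-fold higher in endothelial nuclei in both libraries and 47 (3.77%) at least 2-fold lower, with the median gene at 0.00 and 0.13. A lower UMI minimum gave 118 and 94 genes, and averaging over nuclei 84 on the lower side. Foxp2, a transcription factor gene, stood at 16.3 and 14.2 CPM in endothelial and 720 and 1003 in fibroblast nuclei, Col25a1, a collagen gene, at 32.7 and 49.7 against 859 and 1442, and Igfbp5 at 49.0 and 49.7 against 562 and 1237. The fibroblast genes Bnc2, Slc47a1, Col3a1 and Slc13a3 had 0 UMIs in the endothelial nuclei of both libraries. The 12 fibroblast markers summed to 98.0 and 227 CPM in endothelial nuclei and to 117 and 102 CPM in all other nuclei. Fn1 was held by both types, at 59.5 and 449 CPM in fibroblast nuclei.

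Between the libraries, 1403 genes had at least 30 endothelial UMIs in all, and of these 44 (3.14%) were at least 2-fold higher in the male and 82 (5.84%) at least 2-fold higher in the female endothelial nuclei, around a median log2 ratio (male over female) of -0.05. These counts moved widely: they were 4 and 27 in nuclei that met no other rule and 154 and 243 at a lower UMI minimum. In nuclei picked by the independent markers they were 109 and 157. Under limits of 1000 genes and 1% mitochondrial UMIs they were 5 and 22, with 24 male-high genes at no more than 4000 UMIs. How many genes had enough UMIs can also change with these choices and is not given, so the counts are not shares. Sex-linked genes followed the labels: Xist had 0 and 209 UMIs, and the Y-linked genes Uty, Eif2s3y, Ddx3y and Kdm5d had 13, 10, 6 and 5 UMIs in male nuclei and 0 in female ones. Of the 15 independent endothelial markers with enough UMIs, 7 had a positive and 8 a negative ratio, and 2, Ly6c1 and Ly6a, were at least 2-fold higher in the female nuclei. Single values were Adgrl4 at -0.21 (counting interval -0.62 to 0.20), Slc2a1 at -0.35 (-0.91 to 0.20), Igf1r at -0.32 (-0.72 to 0.07) and Ptprb at -0.03 (-0.68 to 0.60). These intervals hold no spread between animals, so any difference may be one between animals or between preparations.

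Rundc3b, which encodes a RUN-domain protein (chromosome 5, 8490334 to 8622952, minus strand), gave 65 UMIs in 16 of 20 male and 35 UMIs in 19 of 49 female nuclei, or 1061 CPM (819 to 1353) and 248 CPM (173 to 346). Its log2 ratio was 2.01 (1.43 to 2.60), while in all other nuclei it was -0.01, with 79.3 and 80.1 CPM. The RefSeq window upstream of Abcb1a (8566841 to 8567090, plus strand) lies inside the Rundc3b gene, on the opposite strand, and whether counting used the strand is not given in the sources used here. In GENCODE vM21, used here for positions, the Abcb1a gene runs from 8660077 to 8748575 and does not overlap Rundc3b. A link between the counts of these genes was not tested. Abcb1a itself stood at 621 and 518 CPM. Lrch3, a leucine-rich repeat protein gene, stood at 392 and 78.1 CPM, a ratio of 2.07 (1.12 to 3.00) against 0.10 in all other nuclei.

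Some of the other genes higher in the male nuclei were as high elsewhere in that library or sat in few nuclei. Ttr, the transthyretin of choroid plexus, stood at 1617 and 170 CPM, and its ratio of 3.10 was matched by 3.08 in all other nuclei. Hba-a2, a haemoglobin gene, had 33 of its 39 male UMIs in 1 nucleus, and its ratio turned from 1.68 to -0.16 when the nucleus with the most UMIs of the gene was left out in each library. Iqgap2 had 16 of its 26 male UMIs in 1 nucleus. Nsg2, Clstn2, Fam171b, Sltm and Rnf220 had ratios of 1.99, 1.89, 1.55, 1.48 and 1.48.

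Some endothelial genes, named here after their values were seen, were at least 2-fold higher in the female nuclei, though vascular receptors as a list were not. Of these receptors 1 of 12, S1pr1, was female-high, against 5.84% of all genes, with 7 positive and 5 negative ratios. Bsg was at -1.14 (-1.48 to -0.81) where all other nuclei stood at 0.34, with UMIs in 17 of 20 and 43 of 49 nuclei. S1pr1 was at -2.09 (-3.28 to -0.95), Ly6c1 at -1.37 (-2.24 to -0.57) and Ly6a at -1.64 (-2.73 to -0.62), where all other nuclei stood at -0.24, -0.13 and -0.09. Rps19, a ribosomal protein gene, was found in 6 of 20 and 42 of 49 nuclei and stood at 114 and 561 CPM (-2.11, -3.19 to -1.12; all other nuclei -0.33). The antigen-presentation genes B2m and H2-K1 stood at 163 and 334 and at 131 and 341 CPM. Of 4 genes of the inflammation and antigen list with enough UMIs 2, H2-K1 and Nfkbia, reached 2-fold, against 5.84% of all genes. With 4 genes, nothing particular to the list is read from this count. The mitochondrial share, at 1.70% and 2.71%, moved in the same direction, and its part in these differences was not tested.

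Targets of glucocorticoid and genes of early and stress responses were counted as lists, beside 5.84% of all genes at least 2-fold higher in the female nuclei. Of 22 glucocorticoid targets listed, 11 had at least 30 UMIs, of which 10 had a negative ratio and 4 were at least 2-fold higher in the female nuclei, with a list median of -0.86 against -0.43 for the same genes in all other nuclei. The 4 were Nfkbia (98.0 and 383 CPM), Dusp1 (147 and 476), Fkbp5 (81.6 and 256) and Tsc22d3 (81.6 and 256). Of 6 immediate early and stress genes with enough UMIs 5 had a negative ratio and 2 were at least 2-fold higher in the female nuclei. These, Egr1 and Junb, had 1 and 34 and 1 and 31 UMIs, the female UMIs in 12 nuclei each. Without the nuclei that met the mural rule, Egr1 moved from -2.85 to -1.73 and Junb from -2.72 to -3.25, and the number of genes at least 2-fold higher in the female nuclei fell from 82 to 52.

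Among the lowest ratios, most of the other female-high genes were less evenly spread. The spread of female-high genes not named here is not given. Sgcz had 26 of its 56 female UMIs in 1 nucleus, Egfem1 22 of 70, Gpc6 19 of 44 and Tafa2 29 of 43, and Glis3 had 29 UMIs in 5 nuclei. Pcdh11x, a protocadherin gene, had 42 UMIs in 11 nuclei. Arl4a, a small GTPase gene, was spread more widely, with 30 UMIs over 17 of 49 female and 2 UMIs over 2 of 20 male nuclei.

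**Figure D5:**
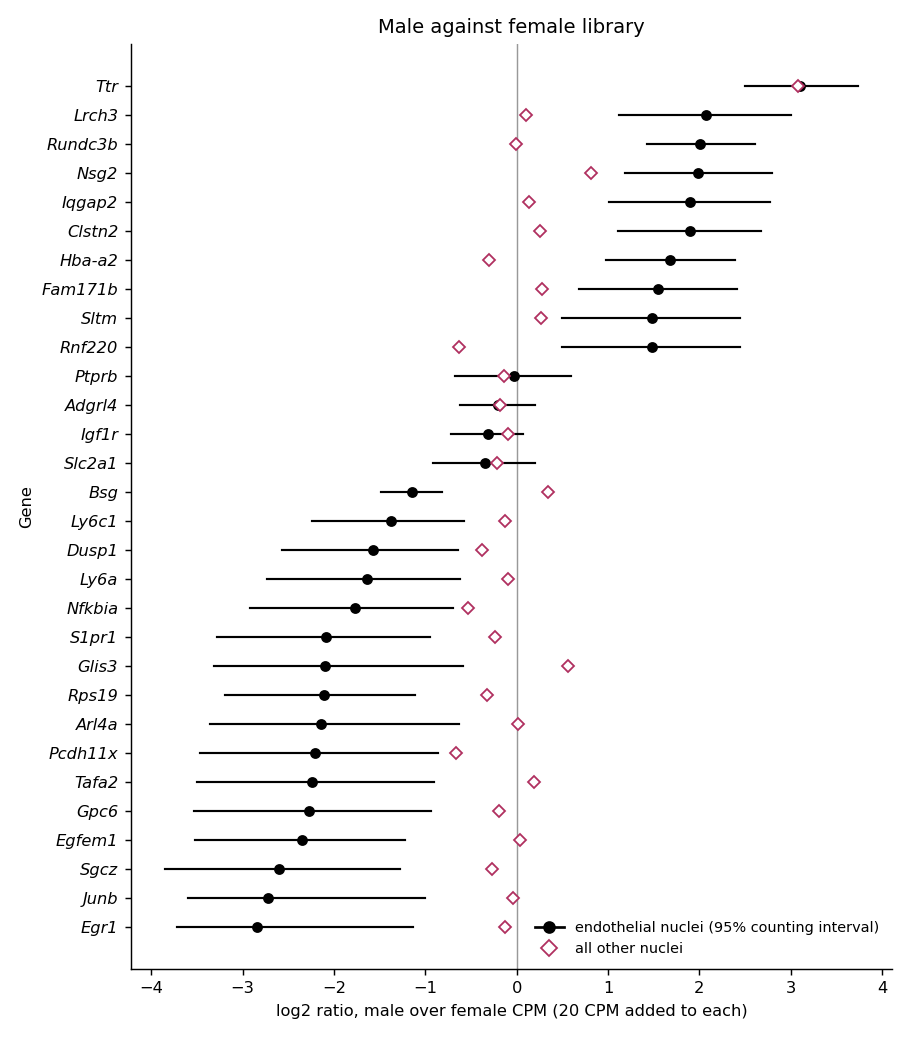
Log2 ratio of male over female CPM (20 CPM added to each, horizontal) in endothelial nuclei (black points with 95% counting intervals) and in all other nuclei (open diamonds) for the 10 highest and 10 lowest genes and 10 endothelial and signalling genes. Listed sex-linked genes, such as Xist, were left out of the ranking. Rundc3b (2.01 against -0.01) and Bsg (-1.14 against 0.34) stand apart from all other nuclei, Ttr (3.10 against 3.08) does not.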

How the data were processed

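Nuclear RNA from 1 male and 1 female hippocampus library (10x Genomics Chromium 3′ chemistry, 10000 nuclei aimed for in each) was read as deposited UMI counts per gene and barcode. Per the submitters' processing notes and the file headers, the authors used bcl2fastq 2.20.0.422, Cell Ranger 7.0.1 and the mm10 build to make these counts; how nuclei were called, which annotation release served, and whether intronic reads or the strand were used is not given in the sources used here. Of 32285 gene identifiers, 32235 matched GENCODE vM21, which gave the positions; upstream windows came from RefSeq (GRCm38.p6).

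The members, gene lists and comparisons were chosen with earlier results of these data known. CPM was computed here from the deposited counts, summed over the nuclei of a group in each library, and 20 CPM was added before each log2 ratio. Levels have exact Poisson and ratios exact conditional binomial 95% intervals, which cover counting error only, as amplified molecules share 1 library. Each group being 1 library, the values are set side by side without a test or p-value. A ratio against another group needed at least 20 observed and expected UMIs in each library, and a male to female ratio at least 30 UMIs over both. A gene at least 2-fold apart in the same direction in both libraries was counted. Genes named are those of the rule, the role lists, the 20 highest ratios against all other nuclei (from 10 endothelial UMIs in each library), and the 10 highest and 10 lowest in each other comparison. Listed sex-linked genes were left out of the ranking between libraries and are given apart. Rgs5 subsets, Rundc3b and Abcb1a positions and the top nucleus of a gene were looked at after the values were seen.

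Other types were found by rules of the same form (5 or more UMIs over 3 or more markers). The demand on the marker share was added after seeing the data, and an endothelial nucleus could meet several rules. Mural and fibroblast groups were formed without that demand, from nuclei of at most 8000 UMIs that were not endothelial, and 2 and 3 nuclei were in both. Astrocyte, oligodendrocyte, microglia, precursor and neuron groups kept the demand. They held only nuclei of at most 8000 UMIs that met no other rule. No doublet caller was run, and the limit of 8000 UMIs was the sole guard for endothelial nuclei. Shares of nuclei with a UMI were also taken after thinning each nucleus to 1000 UMIs, which left out 0 and 2 endothelial nuclei. The ratio code was tested on simulated data. Python 3.11.15, numpy 2.4.6, scipy 1.17.1, pandas 2.3.3 and matplotlib 3.10.9 were used.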

Additional observations from a re-analysis of the deposited data

Results flagged for a closer look

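Nuclei outside the count of endothelial nuclei carried endothelial RNA in both libraries. The marker rule was met by 6 male and 26 female nuclei of more than 8000 UMIs, with median depths of 18744.5 and 17787 UMIs, and 1 and 12 of them also met the neuron rule. Their Flt1 level was 610 and 270 CPM and their Slc2a1 level 188 and 190 CPM, against 2286 and 1810 CPM and 588 and 752 CPM in the endothelial nuclei. The same minimum of 5 marker UMIs is a smaller share of a deeper nucleus, so lower levels were built into this choice.

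A rule of the same form on the 22 independent markers picked 16 male and 93 female nuclei that the 6 genes of the rule did not. They held 1 and 65 UMIs of Flt1, 1 and 85 of Adgrl4 and 8 and 91 of Slc2a1. Slc1a2, the astrocyte glutamate transporter, stood at 2803 and 3579 CPM in them, and Rgs5 had 0 and 106 UMIs. The independent list holds Slco1c1, which astrocytes also carried at 311 and 438 CPM; the part of astrocyte RNA in these picks was not tested.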

How the results depend on the processing

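No paired analysis was possible because each group holds 1 library and no test was run. The alternatives on independent markers, the mural rule and the top nucleus were added after seeing the data. Without nuclei that met another type's rule (5 and 15 nuclei left), the shares were 0.0312% and 0.0779%, the counts against all other nuclei 9 higher and 22 lower, and those between libraries 4 male-high and 27 female-high, with Rgs5 at -0.27. Under limits of 1000 genes and 1% mitochondrial UMIs (2 and 2 nuclei), the shares were 0.0191% and 0.0265%, the counts 2, 6, 5 and 22, and in the lower library Hmcn1 was at -0.23, Klf2 -0.19, Ptprb -0.32, Adgrf5 -0.16, Ctla2a -0.058 and Itm2a -0.12, with Sltm at -0.47 between libraries. The negative ratios from Hmcn1 to Itm2a are those of genes without a UMI in the 2 nuclei of that library. Their size is set by the 20 CPM added and the level in other nuclei. A marker sum of 8 over 4 genes gave a female share of 0.177%. At most 4000 UMIs gave 94 higher and 24 male-high genes and Hba-a2 at -0.52. A lower UMI minimum gave 344 higher genes against all others, 105 and 66 against mural, 118 and 94 against fibroblast nuclei, and 154 male-high and 243 female-high. Averaging over nuclei gave 77 higher against all others, 60 lower against mural and 84 lower against fibroblast nuclei, and other nuclei of at most 8000 UMIs gave 71 and 100. Independent markers (35 and 136 nuclei) gave shares of 0.218% and 0.706%, 109 male-high and 157 female-high genes, Rnf220 at -0.0086 and Glis3 at 1.13. Without nuclei that met the mural rule 52 genes were female-high, and without the top nucleus Hba-a2 was at -0.16. The cause of these shifts was not tested, beyond the smaller number of nuclei or the lower minimum that a choice itself brings. The number of genes with enough UMIs under each choice is not given, so the counts cannot be read as shares. Of 400 values against other groups 261 stayed within their error, 132 moved and 7 turned, and of 261 between libraries 227, 29 and 5. With 5 CPM added in place of 20, 36 values against other groups moved and 24 stayed. With 50 CPM added 21 moved and 39 stayed, while between libraries 0 moved at either setting. Independent markers moved 20 values against all other nuclei and left 0 within their error. Between libraries they moved 8, turned 2 and left 10. Thinning lowered 14 of 20 shares beyond their interval. With 20 and 49 nuclei, genes under 49.0 and 21.3 CPM are below what 3 counts show, and no value separates sex from animal or preparation.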
